A study of Homo sapiens with 18 samples.

Results

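The 7 genes followed here, interferon-linked genes for small membrane proteins measured in sorted lymphoma cells, are IFI27, IFI6, IFI27L1 and IFI27L2 of the FAM14 family and IFITM1, IFITM2 and IFITM3 of the CD225 family. They are 7 of the 58735 genes in the count table, picked by gene symbol, and they were chosen on measured values of these same samples, with the difference between tazemetostat and vehicle known. That difference is therefore given for them as a description, and nothing is supported with it. Of the 7, 6 passed the filter on low counts, as did 20301 genes in all. IFITM3 did not pass, with 21 counts in the 6 mice together.

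The cells were OCI-Ly18, 1 established line of human diffuse large B-cell lymphoma, carrying green fluorescent protein and implanted beneath the skin of NSG mice, which lack T, B and natural killer cells of their own. From day 3 after implantation, 3 mice were given tazemetostat (EPZ6438), which blocks EZH2, a histone methyltransferase, at 150 mg/kg daily by mouth for 14 days, and 3 mice were given vehicle. All 6 mice then received CART19 cells, T cells carrying a chimeric antigen receptor, so both groups share that exposure, and the fluorescent cells were sorted 11 days later. A UTD infusion is also named in the design text, and mice given it are not analysed here. The vehicle mice were M_766, M_769 and M_770, and the tazemetostat mice were M_767, M_768 and M_774, each with 3 libraries called A, B and C. What the letters mean is not stated, so the 3 libraries were summed and the mouse was the replicate. The p-values of the treatment comparison on these sums measure the spread between the 6 mice. Those of the comparison among mice of a group measure the spread between libraries of a mouse.

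Depth was 16124494 to 26336269 counts per library, or 55712115 to 69816184 per mouse. Library M_768_C stood apart, with a TMM scaling factor of 0.891 where the other 17 ran from 0.971 to 1.03. Markers of B cells were present: CD79A, a chain of the B-cell receptor, was at 259 to 302 CPM in vehicle and 275 to 316 CPM in tazemetostat mice, and PAX5, a B-lineage transcription factor, at 547 to 617 and 468 to 724 CPM. CPM are counts scaled by library size and TMM factor. The 17 T-cell markers summed to 363 to 422 and 357 to 381 CPM, nearly all from IL7R, TRBC2, CD247 and TRAC, while the defining markers CD3D and CD3G had 0 counts in every mouse and CD3E had 1 to 9. The 9 myeloid markers summed to 1.06 to 1.39 CPM in vehicle and 1.02 to 1.44 CPM in tazemetostat mice, and the 8 stromal and endothelial markers to 2.6 to 6.08 and 3.91 to 5.54 CPM.

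As background, interferons act through receptors that switch on STAT and IRF factors, and type I interferon drives a complex that holds STAT2 and IRF9 onto a DNA element with repeated GAAA, the interferon-stimulated response element (ISRE). The FAM14 proteins are short and hydrophobic and sit in mitochondrial or endoplasmic reticulum membranes. IFI27 is best known for promoting apoptosis and IFI6 for opposing it. The IFITM proteins, which carry a CD225 domain, hinder virus entry at membranes, IFITM1 mainly at the cell surface.

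The genes sit in 3 places of the GRCh38 genome (hg38 in the submitters' processing notes). IFI27L1 (ENSG00000165948, chr14:94081282-94103846, plus strand), IFI27 (ENSG00000165949, chr14:94104836-94116698, plus strand) and IFI27L2 (ENSG00000119632, chr14:94127779-94130253, minus strand) follow each other on chromosome 14. IFI6 (ENSG00000126709, chr1:27666061-27672218, minus strand) is on chromosome 1. IFITM2 (ENSG00000185201, chr11:307631-315272, plus strand), IFITM1 (ENSG00000185885, chr11:313506-315272, plus strand) and IFITM3 (ENSG00000142089, chr11:319669-327537, minus strand) lie together on chromosome 11. Each is a protein-coding gene. In GENCODE 29 the IFITM1 and IFITM2 models share 351 exon bases on the same strand, 32.5% of the exon length of IFITM1 and 22.7% of that of IFITM2. Of the 50-base windows of the transcripts, 32.0% in IFITM1, 34.3% in IFITM2 and 35.2% in IFITM3 also occur in transcripts of another gene. IFITM1 and IFITM2 share most of theirs with each other (314 windows), and IFITM3 most of its own with AC136475.5 (238 of 472), which overlaps it on the other strand and had 0 counts in every library. Counts of the IFITM genes are therefore uncertain where reads could fit more than 1 gene. Among the FAM14 members 1 such window of 4446 was found in IFI27, shared with AC116003.1, and 0 in IFI6, IFI27L1 and IFI27L2.

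Promoter sequence differs among the members. It was not itself used in the choice, but the genes are interferon-linked, so the presence of ISRE cores is not independent of that choice. The lines give the bases from -160 to 4 around the start site (-1 is the base before it), 5′ to 3′ on the gene's strand, from RefSeq (GRCh38.p14). They are shown to place the ISRE core, searched on both strands as GAAANNGAAA and set in capitals.
IFI27: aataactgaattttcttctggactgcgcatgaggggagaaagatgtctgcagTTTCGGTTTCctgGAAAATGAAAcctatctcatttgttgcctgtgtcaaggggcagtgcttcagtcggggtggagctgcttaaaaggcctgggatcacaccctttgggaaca
IFI6: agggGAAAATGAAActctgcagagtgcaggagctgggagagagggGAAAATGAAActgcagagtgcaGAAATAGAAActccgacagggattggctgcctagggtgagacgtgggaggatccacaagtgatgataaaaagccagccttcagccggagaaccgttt
IFI27L1: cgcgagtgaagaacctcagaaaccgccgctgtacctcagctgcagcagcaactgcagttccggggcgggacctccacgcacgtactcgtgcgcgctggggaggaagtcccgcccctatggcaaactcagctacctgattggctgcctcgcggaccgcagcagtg
IFI27L2: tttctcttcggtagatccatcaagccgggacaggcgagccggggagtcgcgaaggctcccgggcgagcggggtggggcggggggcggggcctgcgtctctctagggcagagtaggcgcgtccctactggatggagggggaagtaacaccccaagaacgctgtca
IFITM1: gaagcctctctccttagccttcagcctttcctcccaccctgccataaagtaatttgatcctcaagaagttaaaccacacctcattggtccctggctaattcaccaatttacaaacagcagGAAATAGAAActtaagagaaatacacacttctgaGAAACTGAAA
IFITM3: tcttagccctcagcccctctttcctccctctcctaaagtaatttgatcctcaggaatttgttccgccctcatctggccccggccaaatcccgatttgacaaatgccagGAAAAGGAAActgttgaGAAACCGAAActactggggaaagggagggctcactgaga

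The windows lie at chr14:94110576-94110739 (IFI27, plus strand), chr1:27672189-27672352 (IFI6, minus strand), chr14:94081150-94081313 (IFI27L1, plus strand), chr14:94129601-94129764 (IFI27L2, minus strand), chr11:313880-314043 (IFITM1, plus strand) and chr11:320857-321020 (IFITM3, minus strand). IFITM2 is named only. IFI27 has 2 entries, and the values given for it are those of the entry with the lower start coordinate. Over the full 300 bases given per gene, IFI27 had 2 ISRE cores, IFI6 had 3, IFITM1 had 2 and IFITM3 had 2. IFI27L1 and IFI27L2 had 0. Across all 35116 promoter windows of that length, 3.57% held the core. In IFI27 the cores lie at -108 to -99 on the minus strand and at -95 to -86 on the plus strand. In IFI6 they start at -156, -115 and -93, and the first pair is spelled alike. In IFITM1 they lie at -40 to -31 and from -6 to 4, across the start site, and in IFITM3 at -52 to -43 and -35 to -26. A second motif, TTCNNNGAA, the palindrome of the gamma-activated site, occurred in IFI27 (-101 to -93, overlapping both cores) and IFITM1 (-12 to -4, overlapping the second core), and in 7.66% of all windows. A match is a description of letters, not of binding.

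**Figure D1:**
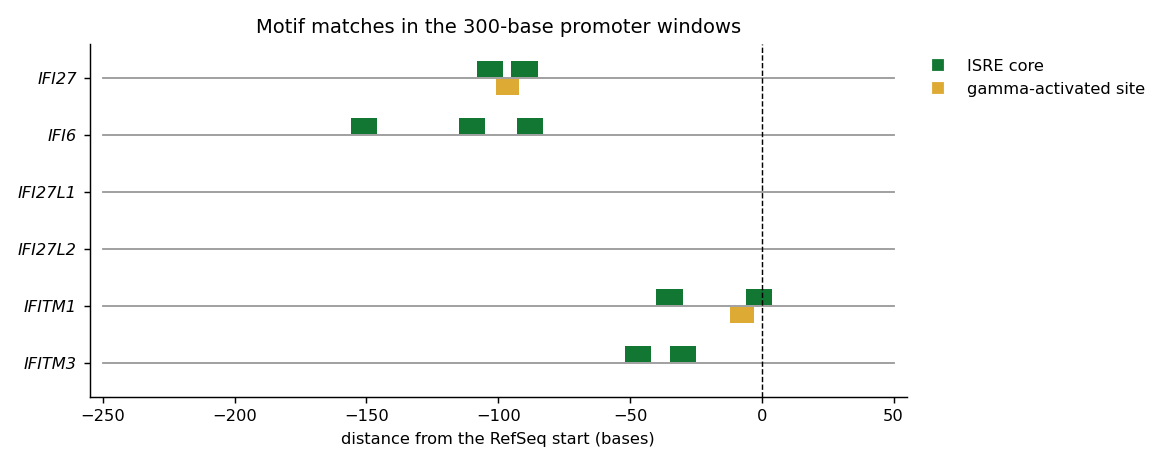
Positions of the ISRE core and the gamma-activated site in the RefSeq promoter windows of the 6 members with an entry, in bases from the start site, with 1 line per gene. For IFI27, which has 2 entries, the one with the lower start coordinate is drawn. IFI27, IFI6, IFITM1 and IFITM3 hold 2 or 3 cores, and IFI27L1 and IFI27L2 hold 0.

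IFI27, best known for promoting apoptosis, was at 18.8, 16.5 and 15.7 CPM in vehicle mice M_766, M_769 and M_770. In tazemetostat mice M_767, M_768 and M_774 it was at 29.8, 37.5 and 43.4 CPM. Every tazemetostat mouse was above every vehicle mouse, with a gap of 11.0 CPM between the groups. The means were 17.0 ± 1.61 and 36.9 ± 6.83 CPM (SD, n = 3 mice each), a log2 fold change of 1.12 (SE 0.139, adjusted p = 0.029, edgeR's quasi-likelihood test with Benjamini-Hochberg adjustment). Over libraries, the vehicle group ran from 14.7 through a median of 16.3 to 21.3 CPM, and the tazemetostat group from 28.2 through 32.7 to 53.7 CPM. The 9 libraries of one group did not overlap the 9 of the other. The highest value came from M_768_C, whose partners M_768_A and M_768_B were at 31.9 and 32.7 CPM. Without M_768_C the log2 fold change was 1.05 (adjusted p = 0.0502), and without mouse M_768, M_769 or M_774 it was 1.11, 1.10 and 0.99 (adjusted p = 0.205, 0.282 and 0.192), so the call was lost each time while the difference remained near its size.

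IFI6, the anti-apoptotic relative, was at 18, 11.3 and 10.3 CPM in vehicle mice M_766, M_769 and M_770, and at 17.9, 21.5 and 24.7 CPM in tazemetostat mice M_767, M_768 and M_774. The groups overlapped, because vehicle mouse M_766 stood level with tazemetostat mouse M_767. The means were 13.2 ± 4.21 and 21.4 ± 3.45 CPM, a log2 fold change of 0.69 (SE 0.202) that did not pass (edgeR adjusted p = 0.477). Without M_766 it was 0.99 (edgeR adjusted p = 0.0164). IFI6 did not pass when M_767, M_768, M_769, M_770 or M_774 was left out instead (edgeR adjusted p = 0.911, 0.943, 0.965, 0.362 and 0.999). The highest tazemetostat library of IFI6 was M_768_C, at 34.8 CPM, against 17.4 and 16.7 CPM in M_768_A and M_768_B.

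IFI27L1 and IFI27L2, the neighbours of IFI27 on both sides, had lower means in tazemetostat mice, and neither passed. IFI27L1 was at 15.5, 10.6 and 8.96 CPM in vehicle mice M_766, M_769 and M_770, and at 8.66, 10.5 and 10.6 CPM in tazemetostat mice M_767, M_768 and M_774. Its log2 fold change was -0.24 (SE 0.191, edgeR adjusted p = 0.895). IFI27L2 was at 20.5, 15.5 and 14.5 CPM, and at 12.2, 18.5 and 14.5 CPM in the same order, with a log2 fold change of -0.16 (SE 0.173, edgeR adjusted p = 0.928). In both genes M_766 was the highest of the 6 mice, and the groups overlapped. Without M_766 their log2 fold changes were 0.03 and 0.02.

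Read against its neighbours, IFI27 differed in ratio as well as in level. IFI27 held 1.21 to 1.76 times the CPM of IFI27L1 in vehicle mice and 3.44 to 4.09 times in tazemetostat mice. Against IFI27L2 the ratio was 0.919 to 1.08 and then 2.03 to 3.0. These ratios contain the IFI27 difference that the genes were chosen on. On the outer sides, DDX24, an RNA helicase gene, was at 156 ± 7.64 and 173 ± 16.7 CPM, and PPP4R4, a phosphatase subunit gene, at 1.39 ± 0.0843 and 1.92 ± 0.231 CPM (edgeR adjusted p = 0.855 and 0.719).

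IFITM1, the CD225 family member at the cell surface, was at 7, 5.03 and 8.74 CPM in vehicle mice M_766, M_769 and M_770, and at 13.4, 13.1 and 17.0 CPM in tazemetostat mice M_767, M_768 and M_774. The groups did not overlap, and the gap was 4.33 CPM. The means were 6.92 ± 1.86 and 14.5 ± 2.20 CPM, a log2 fold change of 1.06 (SE 0.194) that did not pass over all genes (edgeR adjusted p = 0.219). Over libraries, vehicle ran from 4.65 through 6.84 to 9.3 CPM and tazemetostat from 11.9 through 14.7 to 17.6 CPM, without overlap. DESeq2, which called 0.656% of the genes it tested, gave IFITM1 an adjusted p of 4.75e-05 (log2 fold change 1.07). Without vehicle mouse M_770 edgeR gave 1.27 (adjusted p = 0.0245). IFITM1 did not pass when M_766, M_767, M_768, M_769 or M_774 was left out instead (edgeR adjusted p = 0.073, 0.625, 0.441, 0.716 and 0.825). Because IFITM1 shares exon bases with IFITM2, some of these counts may belong to either.

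IFITM2 and IFITM3, which act mainly on endosomes, were scarce. IFITM2 was at 1.23, 0.513 and 0.38 CPM in vehicle mice M_766, M_769 and M_770, and at 0.69, 0.732 and 1.73 CPM in tazemetostat mice M_767, M_768 and M_774. Its log2 fold change was 0.54 (SE 0.474, edgeR adjusted p = 0.904). The levels rest on 21 to 102 counts per mouse, and the groups overlapped. Without M_774 the log2 fold change was -0.01. IFITM1 held 5.67 to 23.0 times the CPM of IFITM2 in vehicle mice and 9.84 to 19.4 times in tazemetostat mice. Of IFITM3, vehicle mice held 5, 4 and 3 counts and tazemetostat mice 4, 2 and 3, at most 0.0771 CPM, so no difference was detectable at this depth. Its promoter window holds 2 ISRE cores, as does that of IFITM1.

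**Figure D2:**
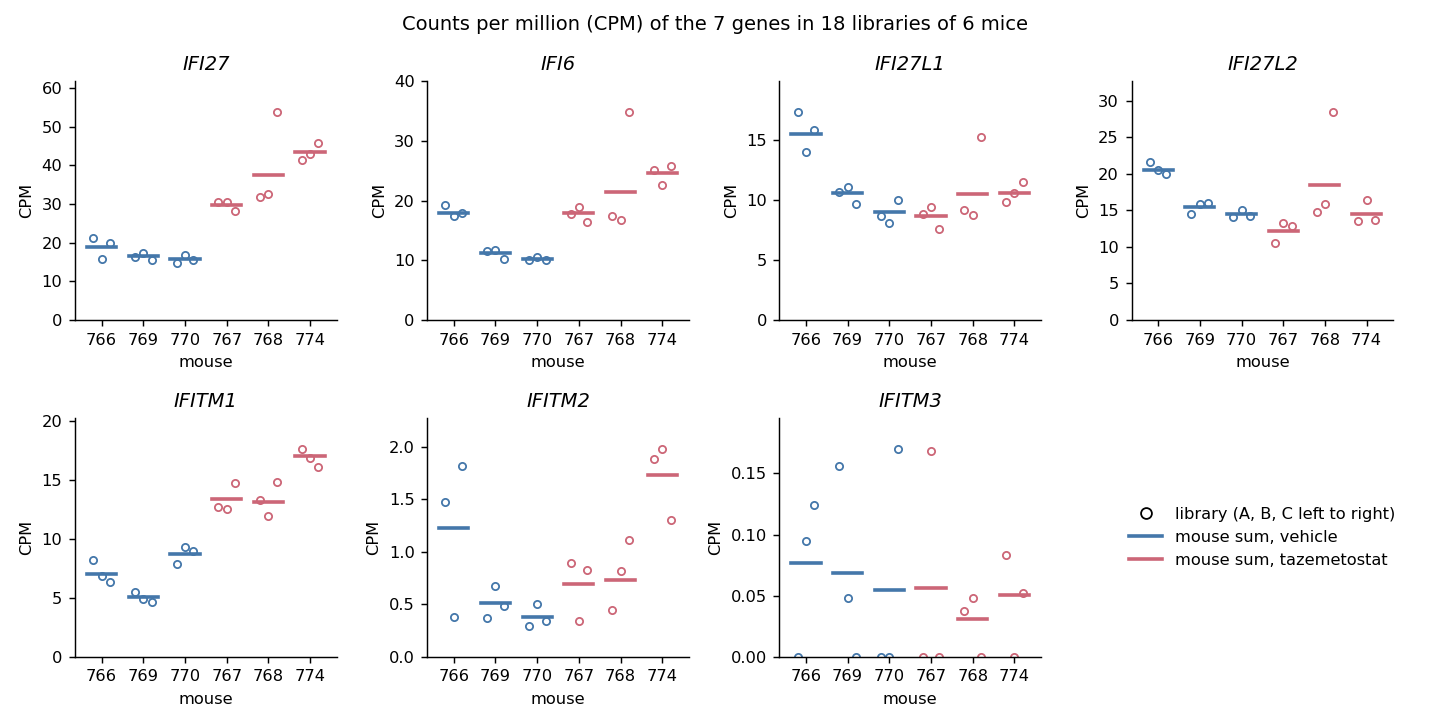
CPM of the 7 members in each of the 18 libraries (circles, A to C from left to right), by mouse, with a line at each mouse sum, vehicle in blue and tazemetostat in red. IFI27 and IFITM1 are the members whose tazemetostat libraries all lie above the vehicle libraries. No share over all genes is given for libraries. By mouse sums, all tazemetostat mice lay above all vehicle mice in 6.58% of tested genes. M_768_C is the highest tazemetostat library in IFI27, IFI6, IFI27L1 and IFI27L2. Libraries of a mouse are not replicates of the treatment, and the members were chosen with this contrast known.

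Among all tested genes 7 passed in this comparison, 4 higher and 3 lower, which is 0.0345% of them, and 1 of the 6 tested members, IFI27, was among them. Every tazemetostat mouse lay above every vehicle mouse in 2 of the 6 members, IFI27 and IFITM1, against 6.58% of all tested genes. Since the genes were chosen with this contrast known, nothing is read from these shares. The same holds for libraries that did not overlap, for which no share over all genes is given. The median log2 fold change was 0.61 over the 6 members and -0.01 over all tested genes. In sums over sorted cells, fewer expressing cells and less RNA per cell cannot be told apart.

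Whether mice given the same treatment differed was asked separately, in a comparison the choice of genes did not use. Its p-values measure the spread between libraries of a mouse, and how those libraries relate is not stated. All 6 tested members differed among mice of a group beyond the spread between libraries of a mouse (edgeR adjusted p from 0.000504 for IFITM1 to 0.0268 for IFI27), where 39.6% of 17867 tested genes did. The highest vehicle mouse held 1.75 times the lowest for IFI6, 1.73 times for IFI27L1, 1.74 times for IFITM1 and 3.24 times for IFITM2. For IFI27L2 the vehicle ratio was 1.41 times and for IFI27 1.19 times. In tazemetostat mice the ratio was 1.46 times for IFI27, 1.51 for IFI27L2, 1.39 for IFI6 and 1.22 for IFI27L1. There it was 1.3 times for IFITM1 and 2.51 times for IFITM2. Without M_766, IFITM1 was the member that still passed (F = 19.6, edgeR adjusted p = 0.0011), where 9.96% of 17584 genes did. The other adjusted p were then 0.077 for IFI27, 0.273 for IFI27L1, 0.0859 for IFI27L2, 0.28 for IFI6 and 0.0632 for IFITM2. The IFI27 call was also lost without M_767, M_770 or M_774 (edgeR adjusted p = 0.394, 0.0529 and 0.101), and the IFITM2 call without M_774 (edgeR adjusted p = 0.0722). IFITM1 passed whichever mouse was left out.

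M_766 also stood apart in the 78 cytosolic ribosomal protein genes, a list chosen after its values were seen. Their mean log2 CPM was 9.81 to 9.85 in the libraries of M_766 and 10.14 in M_768_C, against 9.23 to 9.53 in the others. Over the 18 libraries with the group mean removed, the correlation with that level was 0.918 for IFI6, 0.906 for IFI27L1, 0.930 for IFI27L2 and 0.807 for IFI27. It was 0.565 for IFITM2 and 0.083 for IFITM1. Without the libraries of M_766 and M_768_C, over 14 libraries, it was 0.697, 0.68, 0.624 and 0.836 in the same order, 0.76 for IFITM2 and -0.054 for IFITM1. Libraries of a mouse share that mouse, so these are descriptions. The part of this level in the differences between mice was not tested.

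**Figure D3:**
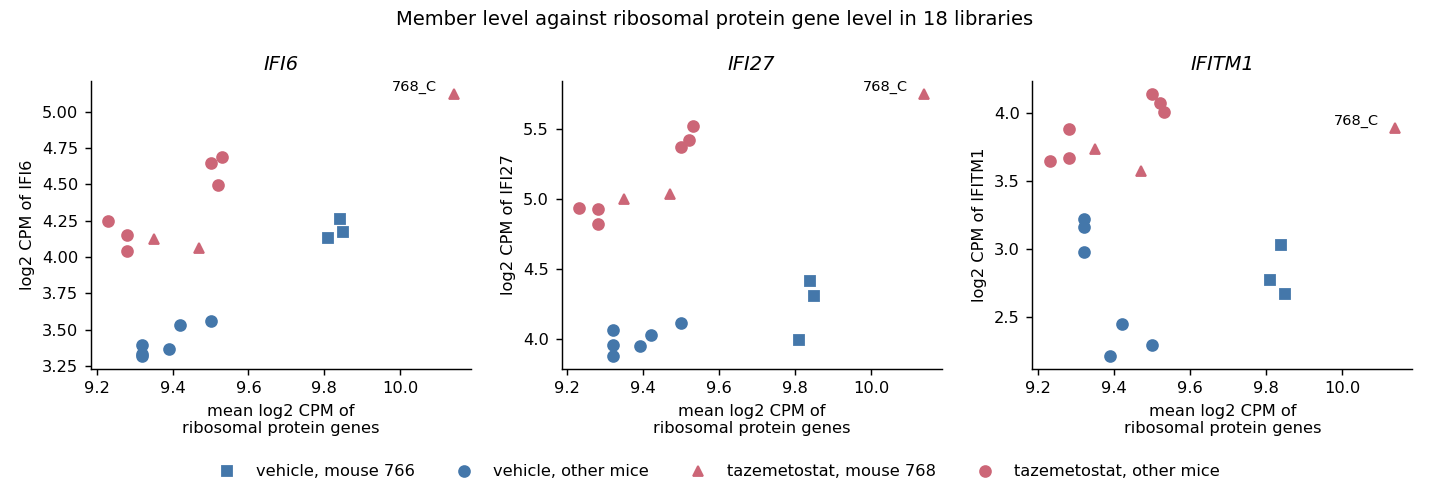
Log2 CPM of IFI6, IFI27 and IFITM1 (1 panel each) against the mean log2 CPM of 78 ribosomal protein genes in 18 libraries, with M_766 as squares, M_768 as triangles and colour for the group. The libraries of M_766 (9.81 to 9.85) and M_768_C (10.14) lie to the right, where IFI6 is high for its group and IFITM1 is not.

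Per deposited gene length, IFI6 had the highest level of the members. In RPKM (CPM per 1000 bases of the deposited gene length) vehicle mice held 15.3 ± 4.86 for IFI6, 10.1 ± 1.92 for IFI27L2, 6.41 ± 1.72 for IFITM1, 4.91 ± 1.44 for IFI27L1, 4.10 ± 0.388 for IFI27, 0.459 ± 0.297 for IFITM2 and 0.0494 for IFITM3. The vehicle ranges of IFI6 and IFI27L2 overlapped, but within each of the 6 mice IFI6 was above IFI27L2. IFITM1 and IFI27L1 also overlapped between vehicle mice, as did IFI27L1 and IFI27, and within mice those orders held in 5 of 6 and 2 of 6. In tazemetostat mice IFI6 was at 24.7 ± 3.98, IFITM1 at 13.4 ± 2.03, IFI27L2 at 9.07 ± 1.92, IFI27 at 8.91 ± 1.65 and IFI27L1 at 4.17 ± 0.461 RPKM. The order depends on the length used. The deposited length of IFI27, 4147 bases, covers all 15 of its transcripts, whereas its longest protein-coding transcript has 725. By the longest protein-coding transcript of each gene, IFI27 stood at 23.5 ± 2.22 RPKM in vehicle mice, second to IFI27L2 at 30.3 ± 5.74. In tazemetostat mice IFI27 stood at 50.9 ± 9.41 RPKM, above all other members. IFI6 then stood below IFI27 and IFI27L2, at 15.7 ± 5.0 RPKM in vehicle and 25.4 ± 4.1 RPKM in tazemetostat mice.

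**Figure D4:**
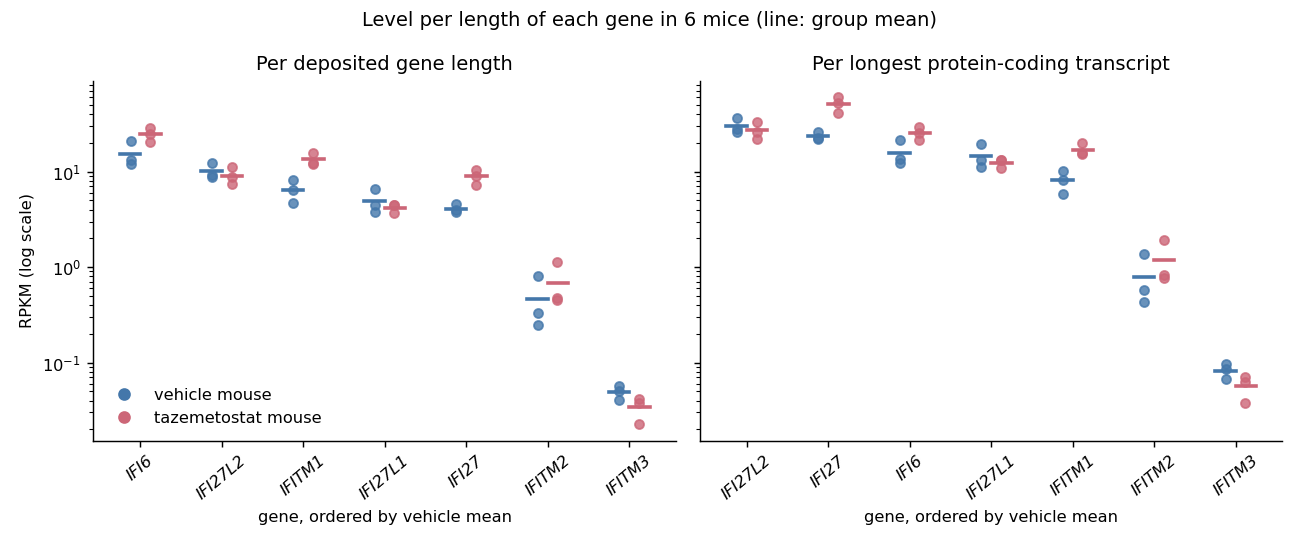
RPKM of the 7 members in each mouse (points) on a log axis, by the deposited gene length (left) and the longest protein-coding transcript (right), with lines at the group means. IFI6 is highest on the left, IFI27L2 in vehicle and IFI27 in tazemetostat mice on the right, and IFITM2 and IFITM3 lie far below the rest.

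The genes most like each member over the 18 libraries, with the group mean removed, were taken from genes averaging a log2 CPM of 1 or more. For IFI6 they were TRAPPC6A (r = 0.967), RPL10P16 (0.959) and RPL11 (0.957). IFI27L1 went with TRABD (0.972), ZNF580 (0.961) and RPS28P7 (0.951), and IFI27L2 with LAMTOR4 (0.964), OCIAD2 (0.961) and RPS9 (0.96). IFI27 went with PNPLA2 (0.906), CEBPB (0.903) and an immunoglobulin lambda variable gene (0.903). IFITM1 had lower values, with FTSJ3 (0.867), PNO1 (0.856) and PTPN6 (0.855), and IFITM2 had PGBD1 (0.849), SULT1A1 (0.817) and BABAM2 (0.808). By rank, the correlations were 0.893, 0.818 and 0.781 for the genes of IFI6 and 0.911, 0.903 and 0.876 for those of IFI27. Among the members, r was 0.942 for IFI6 with IFI27L1 and 0.842 for IFI27 with IFI6, and 0.046 to 0.302 for IFITM1 with the others. Without the libraries of M_766 and M_768_C, r was 0.767 for IFI6 with IFI27L1 and 0.918 for IFI27 with IFI6. These are descriptions over libraries that share mice and depth.

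Other genes of the pathway, in lists written with earlier results of these data known, are given by counts. Of 39 tested type I interferon-stimulated genes, 38 were positive on the log2 scale (median 0.48), and in 26 every tazemetostat mouse was above every vehicle mouse (6.58% of all tested genes). With edgeR 0 passed over all genes and 33 were at an unadjusted p under 0.05, where 6.55% of all tested genes were. DESeq2 called 15 of the list and 0.656% of all genes, and limma-voom on the libraries 19 and 1.38% of all genes. IFI44L was at 15.3 ± 4.28 and 42.7 ± 15.7 CPM and TRIM22 at 120 ± 2 and 194 ± 25.8 CPM (edgeR adjusted p = 0.183 and 0.123), vehicle first. Of 20 tested interferon receptors, kinases and factors, 15 were positive (median 0.25), 0 passed with edgeR, 10 were at an unadjusted p under 0.05, and DESeq2 called 7 and limma-voom 6, against the same shares of all genes (6.55%, 0.656% and 1.38%). Among them was STAT2, a part of the ISRE-binding complex, at 142 ± 17.2 and 211 ± 15.2 CPM (edgeR adjusted p = 0.219). The 21 interferon genes summed to 13, 7 and 8 counts in the vehicle mice, and to 12, 23 and 20 counts in M_767, M_768 and M_774 of the tazemetostat group, and 0 of them could be tested. Of 8 apoptosis genes linked to the FAM14 proteins, 7 were positive (median 0.05). With edgeR 0 passed and 0 were at an unadjusted p under 0.05, and DESeq2 and limma-voom called 0. BAX, which opens mitochondria in apoptosis, was at 140 ± 19.4 and 158 ± 14.2 CPM.

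**Figure D5:**
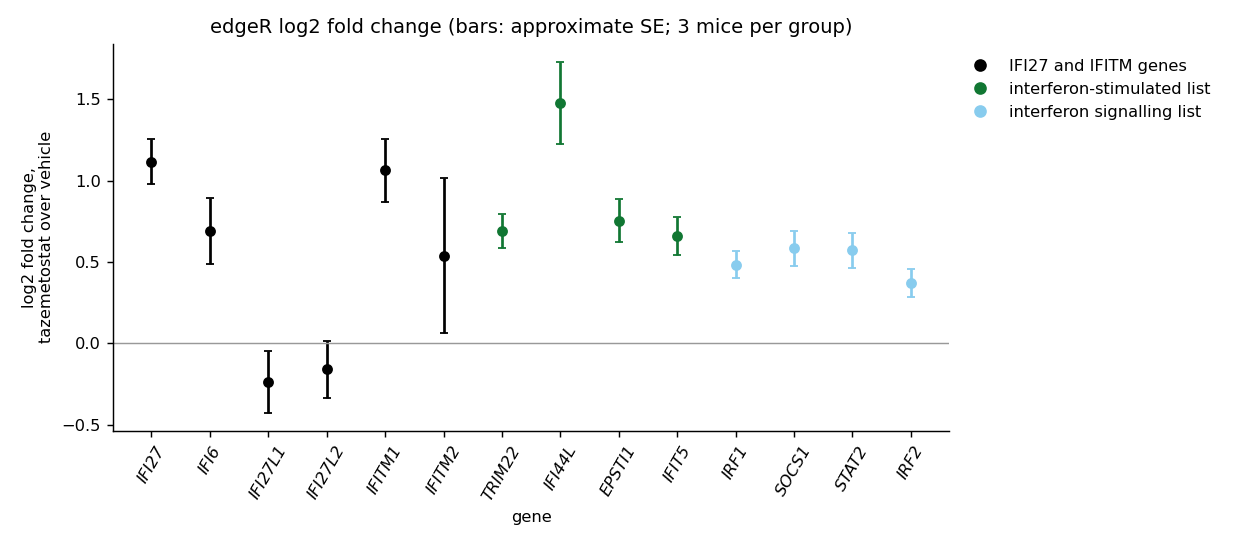
Log2 fold change of tazemetostat against vehicle (edgeR, 3 mice per group) for the 6 tested members and 8 genes of 2 interferon lists, with bars of 1 approximate SE. IFI27 at 1.12 and IFITM1 at 1.06 are the highest members, IFI27L1 at -0.24 and IFI27L2 at -0.16 lie below 0, and the 8 list genes lie above 0.

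Genes induced while tissue is dissociated were counted as well. Of 21 tested, 19 were positive (median 0.54) and in 10 every tazemetostat mouse was above every vehicle mouse, against 6.58% of all tested genes. With edgeR 0 passed and 13 were at an unadjusted p under 0.05 (6.55% of all genes), while DESeq2 called 4 (0.656% of all) and limma-voom 12 (1.38% of all). Their mean log2 CPM in the vehicle mice was 5.09 (M_766), 5.78 and 5.75, and 6.34, 6.37 and 5.94 in M_767, M_768 and M_774. The groups did not overlap in that mean. Their part in the IFI27 and IFITM1 differences was not tested.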

How the data were processed

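Messenger RNA of sorted tumour cells was measured in 18 libraries of 6 mice. The deposited file gives integer read counts per Ensembl gene that the authors left without normalization, beside a gene length, per the file headers. The submitters' processing notes name hg38 as build and DESeq2 as a tool. For aligner, counter and strand the setting was not given in the sources used here, so overlapping genes are uncertain. All 58735 gene IDs had the same coordinates in GENCODE 29.

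Counts were summed per mouse and, after TMM scaling and filterByExpr (minimum count 10), went into the quasi-likelihood F test of edgeR 4.0.16 (R 4.3.3), with Benjamini-Hochberg adjustment over all tested genes and a threshold of 0.05. The genes removed held 0.0602% of counts. CPM uses the TMM factors, and the SE is approximate, the fold change on the log2 scale over the root of F. Mice of a group were compared over the 18 libraries with the mouse as factor, in 4 contrasts. DESeq2 1.42.0 and limma 3.58.1 voom were alternatives. RPKM is CPM per 1000 bases. The steps were tested on simulated data.

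The genes named are the 7 members, for each tested member the 3 most correlated genes, at most 4 genes per list, those of lowest p, and the nearest 2 tested genes on each side. The members and lists were chosen with earlier results of these data known. Other genes named were chosen after their values were seen. Some genes that the rule selects are not reported here.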

Additional observations from a re-analysis of the deposited data

Results flagged for a closer look

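In the 14 sets of 9 libraries examined (7 genes in each group), 2 held a library far from the others, by a gap to the nearest value of more than 0.493 of the whole range. Chance flags about 1 in 20 sets of 9 independent, normally distributed values. Libraries of a mouse share that mouse, the sets of a group share libraries, and IFITM3 had few counts, so that rate does not apply here. The flags are therefore descriptions. IFI27L2 was at 28.4 CPM in M_768_C, where the other tazemetostat libraries ran from 10.6 to 16.4 CPM, a gap of 0.671 of the range. M_768_C was also the highest tazemetostat library in IFI27, IFI6 and IFI27L1, with gaps that did not reach 0.493 of the range. IFITM3 was at 0.168 CPM in M_767_B, where the next tazemetostat library was at 0.0834 CPM and the lowest at 0, a gap of 0.505 of the range. The IFITM3 value rests on 4 counts.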

How the results depend on the processing

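For tazemetostat against vehicle, edgeR called 7 genes with 1 member among them, and the alternatives called more or fewer. DESeq2 called 119 genes with 2 members (IFI27 and IFITM1), the fit with no low-count filter 252 with 3 members (IFI6 also), and limma-voom on 18 libraries (mouse as random effect) 225 with 2 members. With the letter as a replicate block beside the mouse, the counts were 190 genes and 2 members. Upper-quartile, RLE and total-count scaling gave 6, 7 and 7 genes. Leaving out M_768_C gave 7 genes and 0 members. Leaving out 1 mouse gave 0 to 59 genes (M_768, M_769 or M_774 0, M_767 1, M_766 26, M_770 59) and 0 to 2 members. The cause was not tested. The log2 fold change of IFI27 ran from 0.99 to 1.25 and that of IFITM1 from 0.88 to 1.27 over 14 alternatives, both positive in all of them. With each mouse left out in turn, IFI27L1 ran from -0.39 to 0.033 and IFI27L2 from -0.34 to 0.017, positive without M_766, and IFITM2 from -0.006 (without M_774) to 1.22. Among mice of a group, 7081 genes and 6 members were called. The replicate block gave 6572 genes, RLE scaling 7050, no filter 7454 and leaving out M_768_C 9664. Leaving out 1 mouse gave 1751 to 9808 genes (M_766 1751, M_770 3626) and 1 to 6 members. Libraries with the same letter did not deviate together across mice (mean r = -0.0057 over 45 pairs, 0.0029 over 90 pairs with different letters), so the letters were not used to pair samples. IFITM3 and IFITM2 had 2 to 102 counts per mouse, which limits what can be seen in them.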

Other observations

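Of the other CD225 family genes and pseudogenes, 5 of 23 could be tested, 1 with a positive log2 fold change. With edgeR 0 passed and 0 were at an unadjusted p under 0.05, and DESeq2 and limma-voom called 0. TMEM91 was the most counted of them, with 5.38 ± 1.72 CPM in vehicle mice against 4.34 ± 0.361 CPM after tazemetostat (edgeR adjusted p = 0.868). IFITM5, the bone member of the family, had 3 to 6 counts per mouse. Among the antiviral members, IFITM1 had 294 to 1004 counts per mouse and IFITM3 had 2 to 5.

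Of 11505 tested genes with a RefSeq promoter window, 483 held the ISRE core, and their median log2 fold change was 0.06, against 0.01 over the 11505. Of these 483 genes 309 (64.0%) had a positive value, against 5945 (51.7%) of the 11505. IFI27, IFI6 and IFITM1, chosen with this contrast known, are among the 483, and so are interferon-stimulated genes of the list. Of 31 tested type I interferon-stimulated genes of the list with a window, 21 held the core.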
